A study of Mus musculus with 14 samples.

Results

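The genes described are 10 members of the Notch pathway chosen by name, namely the receptors Notch1, Notch2, Notch3 and Notch4, the ligands Jag1 and Jag2, and the target genes Hes1, Hey1, Hey2 and Heyl. The choice was made with earlier results of these data known. All 10 were listed among the 39179 genes of the time course, measured in CPM (read counts scaled to the size of each library), and all 10 were among the 35886 genes obtained by summing transcripts in the sorted cells. RNA-sequencing was performed in Ocy454 cells, a mouse osteocyte-like line that carries a thermosensitive large T antigen, divides at 33 °C and differentiates at 37 °C. In the time course, untreated cells were collected at 37 °C on day 1, day 7, day 10 and day 14, with 2 libraries per day. In the sort, live cells at day 17 were labelled with CD61-PE antibody, and the brightest 10% (CD61 high) and the dimmest 10% (CD61 low) were collected, with 3 libraries per group. All 14 libraries came from this 1 cell line in culture on plastic, so the spread between replicates covers cultures of the line and not animals.

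Notch receptors are membrane proteins that are activated by ligands on the surface of neighbouring cells. Ligand binding allows ADAM metalloproteases and then gamma-secretase to cut the receptor, and the released intracellular domain joins the DNA-binding protein RBPJ and Mastermind-like co-activators at target genes. Jag1 and Jag2 encode Jagged ligands, while HES and HEY genes encode basic helix-loop-helix repressors that are classical targets. In bone, Notch signaling is known to restrain early osteoblast differentiation and is also active in osteocytes.

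The libraries held 27518605 to 34311238 gene-assigned reads in the time course and 18815602 to 19220064 estimated reads in the sort. Replicate libraries differed by more than counting noise in every group, which does not by itself show that they came from separate cultures. Each was counted as a separate sample because the methods describe biological duplicates for the time course and 3 independent groups of cells for the sort. The sorted marker matched its labels, with Itgb3, which encodes CD61, at 5.31, 5.54 and 6.10 CPM in CD61 low and 130, 100.1 and 103.6 CPM in CD61 high libraries. Osteoblast and osteocyte markers were present, and 5 of 8 passed the test as higher on day 14 than day 1 and 7 of 8 as higher in CD61 high cells, among them Dmp1, Phex and Sost (with library size alone in the sort, Sost at Log2FC 0.90 and Runx2 at 0.93 were not called). Col1a1 and Pdpn had the other sign on day 14 against day 1 (Log2FC -0.47 and -0.53, not called, limma adjusted p = 2.7e-05 and 2.4e-07), as did Pdpn in the sort (Log2FC -0.48, not called, edgeR adjusted p = 0.0079). Markers of other cell types were low, but 2 of them were called between days. The 6 endothelial markers summed to 0.0291 to 0.291 CPM in the day 14 libraries and to 0.00 to 0.861 CPM in the sorted libraries, and Emcn was at 0 throughout. Of 5 smooth muscle and pericyte markers, Mcam and Des carried nearly all of a sum of 11.6 to 18.8 CPM over the 14 libraries, while Rgs5 and Cnn1 were at or near 0. Macrophage markers summed to 1.77 to 5.19 CPM in the time course, and in the sort to 12.8 to 15.8 CPM in CD61 low against 8.18 to 8.86 CPM in CD61 high libraries, mostly from Cd68, while Ptprc, Itgam and Adgre1 were at or near 0. Des rose from 0.691 ± 0.400 CPM on day 1 to 3.48 ± 1.25 CPM on day 14 (SD, n = 2; Log2FC 1.40, limma adjusted p = 8.7e-08), and Cd68 rose from 1.68 ± 0.00710 CPM on day 7 to 4.64 ± 0.130 CPM on day 10 (Log2FC 1.07, adjusted p = 5.5e-08, and 0.92 and not called with quantile normalization), the step in which Hey1 was called. Mcam was not called but was highest on day 10, as was Hey1. It was at 9.84 ± 0.423 CPM on day 7, 16.3 ± 0.398 CPM on day 10 and 12.1 ± 0.622 CPM on day 14. The rise to day 10 was at Log2FC 0.68 (limma adjusted p = 9.6e-07) and the fall to day 14 at -0.40 (adjusted p = 0.00059). The part of Des-, Mcam- or Cd68-expressing cells in the results for the members was not tested. These are bulk libraries, in which fewer cells that express a gene cannot be told apart from less of its RNA per cell.

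Between day 1 and day 14, 5 of the 9 members tested rose (Notch3, Jag2, Hes1, Hey1 and Hey2) and 1 fell (Jag1). A gene was called when limma on log2(CPM + 1) gave an adjusted p (Benjamini-Hochberg, over all genes) below 0.01 and a log2 fold change (Log2FC) above 1 or below -1. At these limits 7.51% of all 12725 genes tested were called higher and 5.90% lower. The median Log2FC was 1.17 over the 9 members and -0.03 over all genes tested. Because the members were chosen with earlier results of these data known, these values beside all genes are descriptions. Heyl stayed under 1 CPM in every library and was not tested. Hey1 and Hey2 were under 1 CPM in both day 1 libraries and entered the test only through later days. A call as lower on day 14 was thus hardly open to them. With a mean of at least 5 CPM required, they left the test and 3 members in place of 5 were called higher. Because the scale adds 1 to each CPM, the Log2FC of genes near 1 CPM understates their ratio in CPM. That ratio is given for Hey1 and Hey2 from day 1 to day 14 and for some of the steps.

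The change was not even across the interval. From day 1 to day 7, Jag2 rose and Jag1 fell, so that 1 member was called higher (4.49% of all genes) and 1 lower (4.62% of all genes). At the fold limit, Hey1 was the only member called higher from day 7 to day 10 (1.43% of all genes called higher, 0.786% lower), and Jag2 the only member called higher from day 10 to day 14 (2.09% of all genes called higher, 0.872% lower). The day 7 and day 10 libraries each enter 2 of these steps, and the day 1 and day 14 libraries are shared with the comparison of the ends, so the comparisons are not independent of each other. Without the fold limit the background was high and the members' counts stand beside it. On day 7 against day 1, 5 members were higher and 2 lower, beside 24.5% and 32.0% of all genes. On day 10 against day 7, 5 were higher and 1 lower, beside 29.8% and 18.9%, and on day 14 against day 10, 4 were higher and 2 lower, beside 22.9% and 30.0%. On day 14 against day 1, 5 were higher and 2 lower, beside 32.6% and 36.0% of all genes. With single libraries left out, these counts of higher members were 4 to 5 on day 7, 3 to 4 on day 10 (3 without day 7 replicate 2), 3 to 4 on day 14 against day 10, and 5 on day 14 against day 1.

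**Figure D1:**
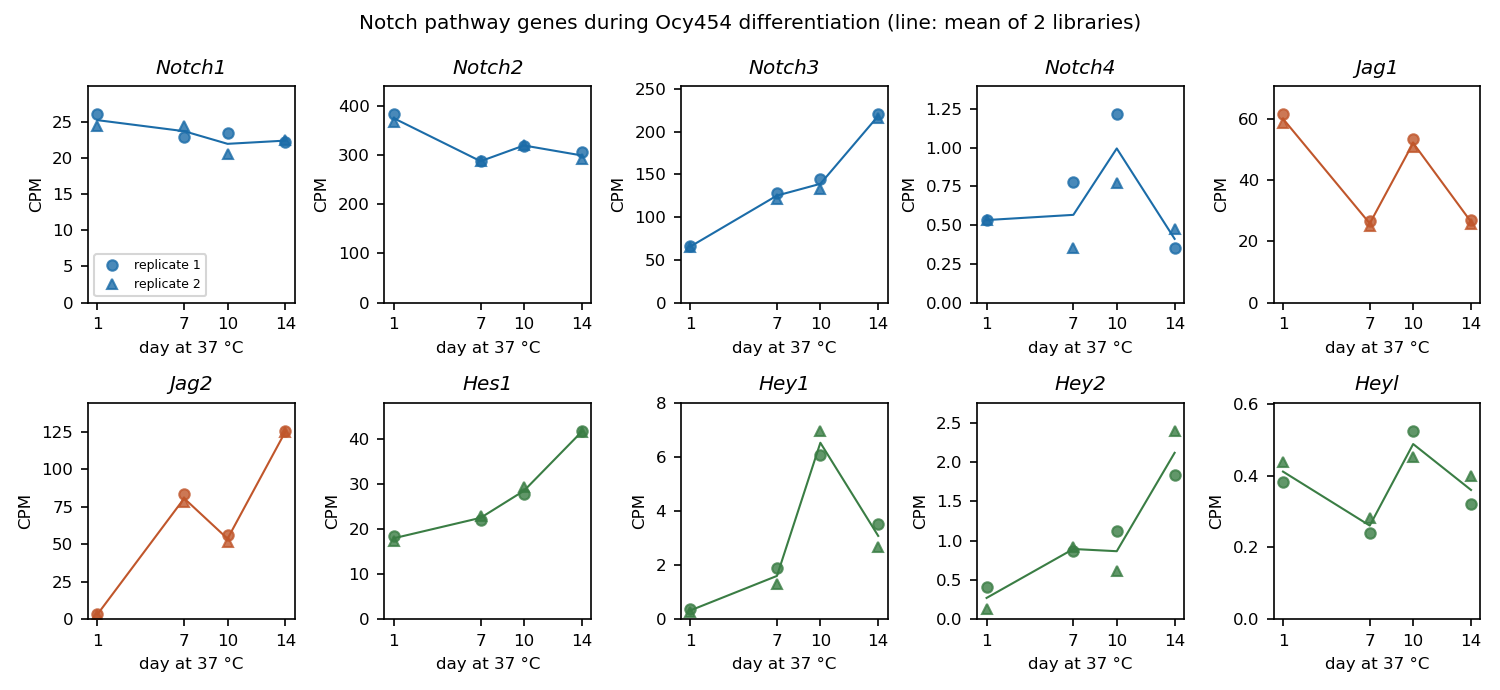
CPM of the 10 genes (vertical axes, each from 0) against day at 37 °C; circles are replicate 1, triangles replicate 2 and lines the mean of the 2 libraries. Jag2 climbs from about 3.12 to 125 CPM with a dip at day 10, Jag1 is high on days 1 and 10 and low on days 7 and 14, and Hey1 is highest on day 10.

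In the time course, Notch2 was the most abundant receptor per length. It was at 382 and 366 CPM on day 1, 287 and 287 CPM on day 7, 317 and 321 CPM on day 10, and 306 and 291 CPM on day 14. The day 1 libraries stood above the other 6. The difference between day 14 and day 1 was small (Log2FC -0.32, SE 0.04, limma adjusted p = 1.4e-08) and was not called because of the fold limit.

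Notch3 was at 65.9 and 65.0 CPM on day 1, 129 and 122 CPM on day 7, 145 and 133 CPM on day 10, and 220 and 216 CPM on day 14. Libraries of different days did not overlap, although day 7 and day 10 lay close to each other (Log2FC 0.15, SE 0.04, adjusted p = 0.0051). From day 1 to day 14 Notch3 rose 3.34-fold in CPM (Log2FC 1.72, SE 0.04, limma adjusted p = 2.8e-22). The first step, day 7 against day 1, fell just short of the fold limit (Log2FC 0.93, SE 0.04, adjusted p = 4.3e-16) and was not called, nor was the last, day 14 against day 10 (Log2FC 0.65, SE 0.04, adjusted p = 1.8e-12).

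Notch1 was nearly level, at 26.1 and 24.4 CPM on day 1, 23.0 and 24.5 CPM on day 7, 23.4 and 20.5 CPM on day 10, and 22.3 and 22.6 CPM on day 14. Neighbouring days overlapped, and the difference between day 14 and day 1 did not pass the test (Log2FC -0.16, SE 0.07, limma adjusted p = 0.046). Notch4 rested on 10 to 37 reads per library, and its 8 values lay between 0.350 and 1.21 CPM. Its highest library was a day 10 library, and no comparison of days called it (day 14 against day 1, Log2FC -0.12, SE 0.17, adjusted p = 0.52).

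Receptors can be compared with each other only per length. The scale used was CPM per kilobase of the exon length deposited with the CPM. On it, Notch2 held 78.1% ± 0.236 (SD, n = 2) of the 4 receptors on day 1 and 49.7% ± 0.636 on day 14. Notch3 held 17.9% ± 0.303 on day 1, 34.9% ± 0.912 on day 7, 35.0% ± 1.43 on day 10 and 47.5% ± 0.524 on day 14. The ratio of Notch3 to Notch2 per kilobase thus went from 0.229 ± 0.00457 on day 1 to 0.956 ± 0.0228 on day 14. Notch1 held 3.89% on day 1 and 2.75% on day 14, and Notch4 at most 0.294% in any library.

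The ligand genes went in opposite directions. Jag2 was at 3.19 and 3.04 CPM on day 1, 83.3 and 78.1 CPM on day 7, 56.1 and 51.3 CPM on day 10, and 126 and 125 CPM on day 14. All 6 later libraries lay far above day 1, and the days were ordered 1, 10, 7, 14 with no overlap between any of them. Jag2 rose 40.2-fold in CPM from day 1 to day 14 (Log2FC 4.94, SE 0.06, limma adjusted p = 2.1e-29). Most of the rise was present on day 7 (Log2FC 4.31, SE 0.06, adjusted p = 6.4e-28). The lower level on day 10 than day 7 had a small adjusted p but missed the fold limit (Log2FC -0.58, SE 0.06, adjusted p = 6.5e-09). Day 14 was again above day 10 (Log2FC 1.21, SE 0.06, adjusted p = 3.1e-15).

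Jag1 was at 61.4 and 58.5 CPM on day 1, 26.7 and 24.9 CPM on day 7, 53.4 and 50.7 CPM on day 10, and 26.9 and 25.7 CPM on day 14. Days 1 and 10 were high and days 7 and 14 low, with days 7 and 14 overlapping and day 10 just below day 1. Jag1 fell by 1.19 on the log2 scale from day 1 to day 7 (SE 0.06, limma adjusted p = 1.1e-15) and was 1.16 lower on day 14 than day 1 (Log2FC -1.16, SE 0.06, adjusted p = 1.2e-15). Its difference between day 10 and day 7 lay at the fold limit (Log2FC 0.99, SE 0.06, adjusted p = 2.2e-13). It would be called with a pseudocount of 0.1 (Log2FC 1.01), without day 7 replicate 1 (Log2FC 1.03) or without day 10 replicate 2 (Log2FC 1.02). The difference between day 14 and day 10 was of the opposite sign (Log2FC -0.96, SE 0.06, adjusted p = 2.8e-13) and was not called.

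Per kilobase, the ratio of Jag2 to Jag1 was 0.0825 ± 0.00013 (SD, n = 2) on day 1, 4.96 ± 0.0101 on day 7, 1.64 ± 0.0437 on day 10 and 7.55 ± 0.197 on day 14. Jag1 was therefore the more abundant ligand transcript per length on day 1 and Jag2 on each later day. The order of days in this ratio, 1, 10, 7 and 14, was the same in both replicate numbers.

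**Figure D2:**
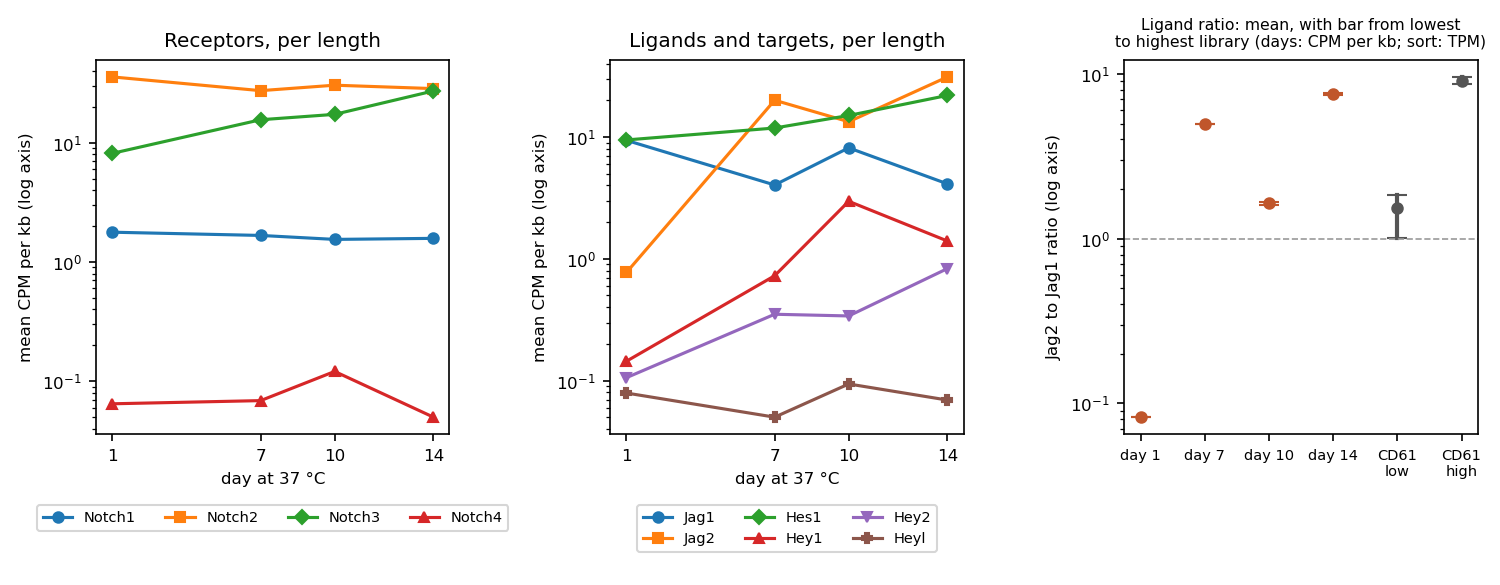
Mean CPM per kilobase (log axes, 2 libraries per day) of the receptors and of the ligands and targets against day at 37 °C, and the Jag2 to Jag1 ratio in each group (log axis; points are means and bars run from the lowest to the highest library, CPM per kilobase for days, TPM for the sort). Notch3 reaches 0.956 of Notch2 on day 14, and among the days the ligand ratio is under 1 on day 1 alone; days and sort are on different scales.

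The start regions of the ligand genes are shown because the genes moved in opposite directions. They were taken from a set of RefSeq start regions (GRCm38.p6), as the 250 bases before the start on the gene's strand. The set used had an entry for 7 of the 10 members and none for Hes1, Hey1 and Heyl. Capitals mark CACGCG or its reverse complement CGCGTG, a site that HES and HEY proteins are known to bind. The windows are chr2:137116521-137116770, minus strand, for Jag1 and chr12:112929496-112929745, minus strand, for Jag2.
Jag1: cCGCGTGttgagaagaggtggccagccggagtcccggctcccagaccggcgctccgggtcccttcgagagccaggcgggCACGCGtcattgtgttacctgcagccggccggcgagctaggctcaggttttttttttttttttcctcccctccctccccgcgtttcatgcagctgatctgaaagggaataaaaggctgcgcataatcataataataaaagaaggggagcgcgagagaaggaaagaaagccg
Jag2: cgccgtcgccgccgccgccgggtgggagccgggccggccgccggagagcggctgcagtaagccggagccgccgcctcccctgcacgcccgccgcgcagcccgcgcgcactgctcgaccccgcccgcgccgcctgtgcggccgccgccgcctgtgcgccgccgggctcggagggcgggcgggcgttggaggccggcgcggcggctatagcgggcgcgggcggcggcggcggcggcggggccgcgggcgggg
The Jag1 window held 2 such sites, at positions -249 and -171 from the start. The Jag2 window held none, but the same letters stood just past the start of Jag2, at position 19, so the count depends on where the window ends. Of all 32851 windows of this length, 7.62% held at least 1 on either strand, and among the other members with an entry only Notch2 had 1, at -42. The Jag2 window was 87.2% G or C and the Jag1 window 57.2%, against a median of 52.4% over all windows.

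Of the targets, Hes1 was the most abundant per length and the most regular. It was at 18.5 and 17.4 CPM on day 1, 22.0 and 23.0 CPM on day 7, 27.7 and 29.3 CPM on day 10, and 41.9 and 41.5 CPM on day 14. Each day lay above the one before with no overlap. No single step reached the fold limit (Log2FC 0.31, 0.33 and 0.53 in order, SE 0.07 each), but from day 1 to day 14 Hes1 rose 2.32-fold in CPM (Log2FC 1.17, SE 0.07, limma adjusted p = 1.1e-14).

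Hey1 was at 0.384 and 0.251 CPM on day 1, 1.89 and 1.30 CPM on day 7, 6.07 and 6.96 CPM on day 10, and 3.50 and 2.65 CPM on day 14. It was highest on day 10, and the 4 days did not overlap. Hey1 rose 4.08-fold in CPM from day 7 to day 10 (Log2FC 1.54, SE 0.15, limma adjusted p = 1.5e-09) and was 9.69-fold higher on day 14 than day 1 (Log2FC 1.62, SE 0.15, adjusted p = 1.7e-10, from 1.42 to 3.30 over the alternatives). The latter fold rested on 13 and 8 day 1 reads, at 12.3 without day 1 replicate 1 and 8.01 without day 1 replicate 2. The first step, 5.03-fold in CPM, missed the limit on the log2(CPM + 1) scale (Log2FC 0.97, SE 0.15, adjusted p = 2.0e-06). It passed with a pseudocount of 0.1 (Log2FC 2.02), by edgeR on the reads recovered from CPM (Log2FC 2.37), without day 1 replicate 1 (Log2FC 1.04) and without day 7 replicate 2 (Log2FC 1.14). The lower level on day 14 than day 10 was likewise not called (Log2FC -0.89, SE 0.15, adjusted p = 8.9e-06) but passed with a pseudocount of 0.1 (Log2FC -1.07), by edgeR (Log2FC -1.01) and without day 14 replicate 1 (Log2FC -1.04).

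Hey2 was lower still, with 4 to 66 reads per library. It was at 0.413 and 0.125 CPM on day 1, 0.870 and 0.915 CPM on day 7, 1.12 and 0.612 CPM on day 10, and 1.84 and 2.40 CPM on day 14. Day 1 was lowest and day 14 highest, while days 7 and 10 overlapped. Hey2 rose 7.86-fold in CPM from day 1 to day 14, and the fold rested on 14 and 4 day 1 reads, at 16.9 without day 1 replicate 1 and 5.12 without day 1 replicate 2 (Log2FC 1.30, SE 0.16, limma adjusted p = 9.0e-08, from 1.10 to 2.96 over the alternatives). The steps to day 7 (Log2FC 0.59) and from day 10 to day 14 (Log2FC 0.75) missed the fold limit and passed it with a pseudocount of 0.1 (Log2FC 1.54 and 1.24) and by edgeR on recovered reads (Log2FC 1.74 and 1.34).

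Heyl had 8 to 16 reads per library, or 0.240 to 0.525 CPM. Fitted without the filter, it was called in no comparison of days. The comparison with the smallest adjusted p was day 10 against day 7, at 0.488 ± 0.0524 against 0.261 ± 0.0295 CPM with no overlap (SD, n = 2; Log2FC 0.24, SE 0.06, limma adjusted p = 0.016). Per kilobase, Hes1 was 68.1 ± 17.4 times Hey1 on day 1, 16.9 ± 4.89 times on day 7, 5.08 ± 0.290 times on day 10 and 16.0 ± 3.00 times on day 14 (SD, n = 2).

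The Hey2 start region is shown because it was the only 1 of the 7 windows with a complete match to GTGGGAA, or its reverse complement TTCCCAC, the letters known for RBPJ binding. This match is in capitals in the 250 bases before the start, chr10:30842784-30843033 (RefSeq, GRCm38.p6, minus strand), and a further match that crosses the start is in capitals in the 30 bases of chr10:30842774-30842803.
Hey2: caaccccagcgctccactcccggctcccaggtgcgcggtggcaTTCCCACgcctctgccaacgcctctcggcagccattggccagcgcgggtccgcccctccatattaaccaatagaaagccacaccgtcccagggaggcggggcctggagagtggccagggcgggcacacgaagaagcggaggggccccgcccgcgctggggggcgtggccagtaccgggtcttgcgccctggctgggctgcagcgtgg
Hey2, across the start: ctggctgggctgcagcGTGGGAAagaacct
The upstream match began at position -207 and the other at -4. Of all 32851 windows, 5.42% held a match upstream on either strand. The third motif searched, CACNAG with reverse complement CTNGTG, stood in 36.7% of all windows and in those of Notch1, Notch2 and Notch3. The only matches that overlapped each other were those of CACNAG on opposite strands at the Notch1 start.

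In the sorted cells, 3 of the 8 members tested passed the same limits by edgeR's quasi-likelihood test on estimated counts. Jag2 was higher in CD61 high cells (4.84% of all 12077 genes tested were called higher), and Jag1 and Notch1 were lower (4.37% of all genes called lower). The median Log2FC was 0.26 over the 8 members and 0.00 over all genes. Without the fold limit, 4 members were higher and 2 lower, beside 19.4% and 16.0% of all genes. The higher members were Jag2, Notch3, Notch2 and Hes1, and with single libraries left out their number was 2 to 4 (2 without CD61 low replicate 2). Values are given as CPM after scaling by trimmed mean of M-values (TMM), in the order of libraries 1 to 3 of each group.

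Jag1 was at 46.5, 49.0 and 45.2 CPM in CD61 low and 16.2, 13.6 and 14.6 CPM in CD61 high libraries. The groups were far apart, and Jag1 was 3.17-fold lower in CD61 high cells (Log2FC -1.67, SE 0.09, edgeR adjusted p = 5.7e-07). Over 14 alternatives the call held, with Log2FC from -1.97 to -1.55.

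Jag2 was at 49.9, 39.6 and 44.8 CPM in CD61 low and 101, 87.2 and 95.4 CPM in CD61 high libraries. All CD61 high libraries lay above all CD61 low libraries, and Jag2 was 2.11-fold higher in CD61 high cells (Log2FC 1.08, SE 0.10, edgeR adjusted p = 1.1e-05). This call lay near the fold limit and was lost without CD61 low replicate 2 (Log2FC 0.99) and with scaling by library size alone (Log2FC 0.78), a scaling that moved the median of all genes to -0.29.

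Notch1, level over the days, was at 53.2, 53.1 and 63.0 CPM in CD61 low and 20.3, 23.7 and 23.8 CPM in CD61 high libraries. The groups did not overlap, and Notch1 was 2.50-fold lower in CD61 high cells (Log2FC -1.32, SE 0.10, edgeR adjusted p = 3.4e-06). The call held under 14 alternatives, with Log2FC from -1.62 to -1.25.

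Notch2 was at 205, 200.1 and 267 CPM in CD61 low and 435, 299 and 373 CPM in CD61 high libraries. Notch3 was at 164, 155 and 166 CPM in CD61 low and 276, 257 and 256 CPM in CD61 high libraries. For both genes every CD61 high library lay above every CD61 low library. Neither reached the fold limit (Notch2, Log2FC 0.72, SE 0.14, edgeR adjusted p = 0.0021; Notch3, Log2FC 0.70, SE 0.07, adjusted p = 1.8e-05). With library size alone these fell to 0.42 and 0.40, against the median of -0.29 for all genes on that scaling.

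**Figure D3:**
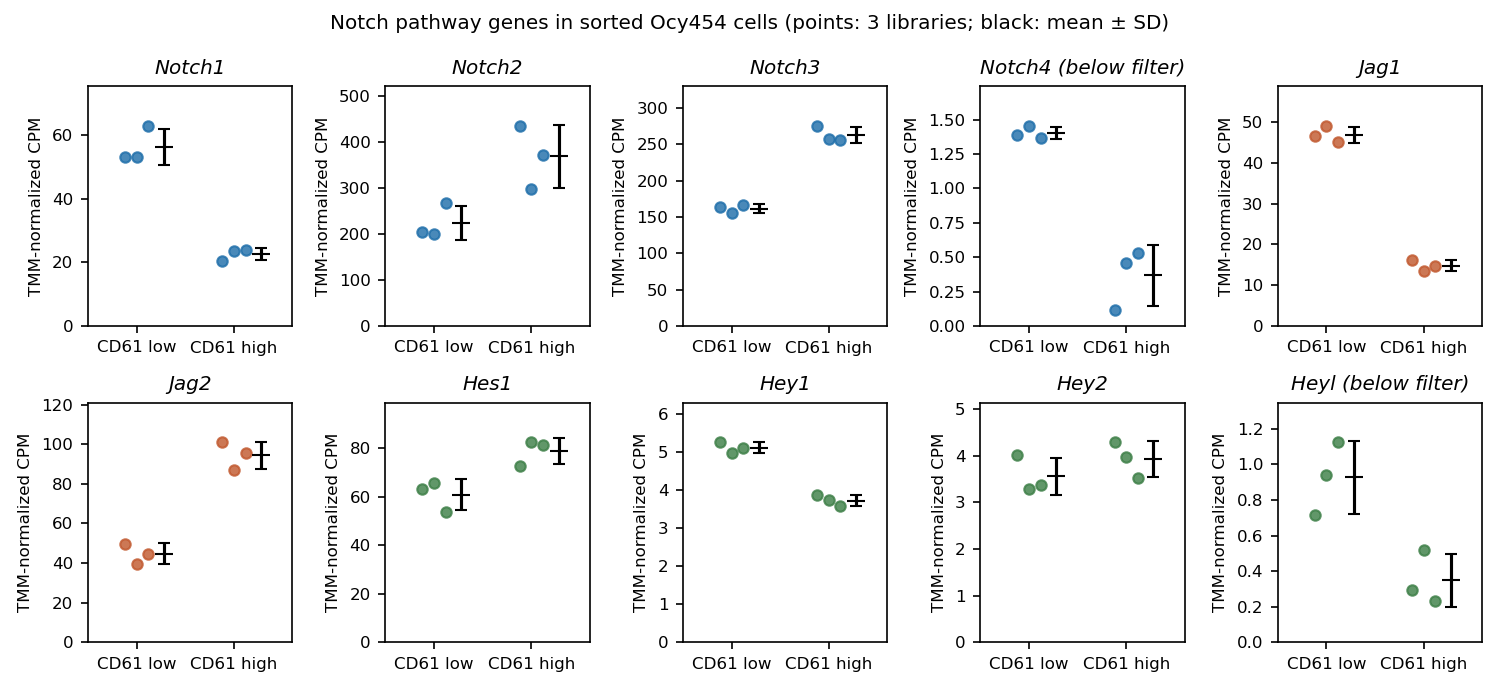
TMM-scaled CPM of the 10 genes (vertical axes, each from 0) in CD61 low and CD61 high libraries; coloured points are the 3 libraries and black marks the mean ± SD. Notch1 and Jag1 lie lower and Jag2 higher in all CD61 high libraries, and Hey2 overlaps between the groups.

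Hes1 was at 63.2, 65.5 and 53.5 CPM in CD61 low and 72.6, 82.3 and 81.2 CPM in CD61 high libraries. The groups were separate, but the difference was small and not called (Log2FC 0.37, SE 0.09, edgeR adjusted p = 0.0070). Over the alternatives its Log2FC ran from 0.07, with library size alone, to 0.43, with adjusted p from 0.0020 to 0.54. Hey1 was at 5.26, 4.97 and 5.13 CPM in CD61 low and 3.87, 3.74 and 3.59 CPM in CD61 high libraries, which was not called (Log2FC -0.45, SE 0.16, adjusted p = 0.037). Over the alternatives the Log2FC of Hey1 ran from -0.76, with library size alone, to -0.43, with adjusted p from 0.0022 to 0.094. Hey2 overlapped between the groups, at 4.02, 3.28 and 3.37 CPM in CD61 low and 4.28, 3.97 and 3.53 CPM in CD61 high libraries (Log2FC 0.14, SE 0.19, adjusted p = 0.55). In the sort, 0 of the 3 tested targets passed the limits by edgeR or by DESeq2. With 4.84% of all genes called higher and 4.37% lower by edgeR, that count lies near the background. By edgeR, 2 of the 3 targets had an unadjusted p under 0.05, a cut for which no share of all genes is given here. The same 3 had risen by day 14, and the difference between the experiments was not tested.

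Notch4 and Heyl had fewer than 5 normalized counts in some libraries and did not enter the fit. Notch4 was at 1.39, 1.45 and 1.37 CPM in CD61 low and 0.117, 0.461 and 0.529 CPM in CD61 high libraries, on 2 to 31 estimated reads. The groups did not overlap, and without the filter Notch4 would be called lower (Log2FC -1.91, SE 0.52, edgeR adjusted p = 0.0089). Heyl was at 0.718, 0.938 and 1.12 CPM in CD61 low and 0.293, 0.518 and 0.235 CPM in CD61 high libraries, and without the filter it did not pass (Log2FC -1.39, SE 0.58, adjusted p = 0.075).

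Per length, in TPM (transcript abundance scaled to the same total in each library), the ratio of Jag2 to Jag1 was 1.52 ± 0.454 (SD, n = 3) in CD61 low and 9.08 ± 0.452 in CD61 high libraries. The CD61 low libraries ranged from 1.007 to 1.85, so that the ligands were nearly equal in 1 of them, while the CD61 high libraries ranged from 8.74 to 9.60. The ratio of Notch3 to Notch2 was 1.04 ± 0.160 in CD61 low and 1.05 ± 0.164 in CD61 high libraries, which overlapped. Notch1 made up 13.8% ± 1.74 of the TPM of the 4 receptors in CD61 low and 4.18% ± 1.97 in CD61 high libraries. TPM and CPM per kilobase come from different counting methods and gene lengths, so no test was made between the time course and the sort, and their ratios stand side by side only.

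**Figure D4:**
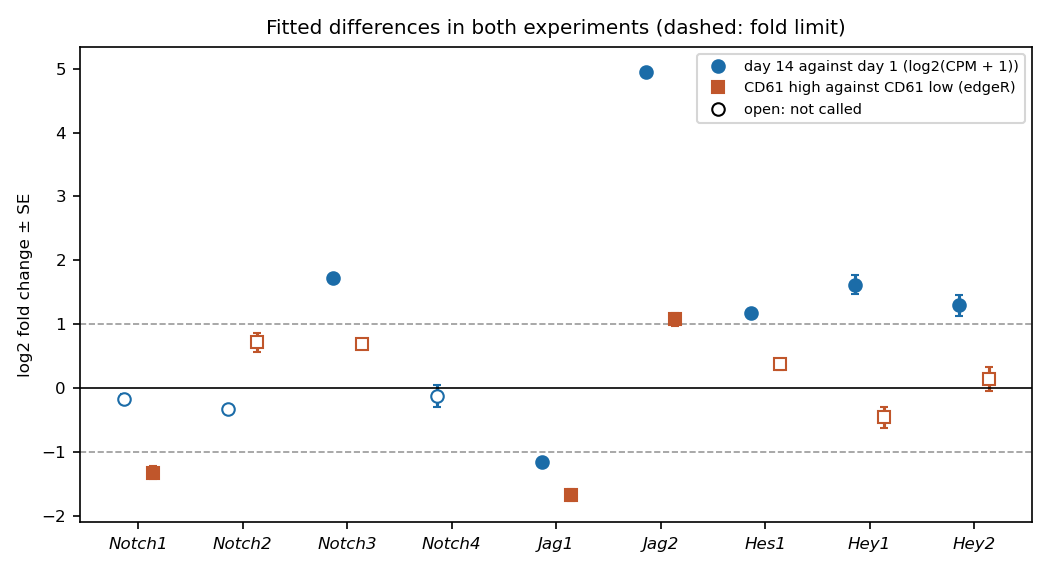
Log2FC ± SE of each tested gene for day 14 against day 1 (blue circles, limma on log2(CPM + 1), 2 libraries per day) and CD61 high against CD61 low (orange squares, edgeR, 3 libraries per group); filled symbols were called and dashed lines mark the limits of 1 and -1. Jag2 was called higher and Jag1 lower in both, and Notch1 was called in the sort alone.

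The transcripts that carried these values differed between genes. Over the sorted libraries, the main coding transcript (such as Notch2-201) held at least 96.0% of the gene's TPM on average in each group for Notch2, Notch3, Hey1, Hey2 and Heyl. Notch1 and Notch4 each had reads on 2 transcripts, and their TPM did not follow their CPM. In CD61 low libraries 1 to 3, Notch1 was at 10.3, 13.9 and 15.7 TPM and Notch4 at 0.397, 1.99 and 0.412 TPM. The receptor shares in TPM carry this spread. Jag1 was split between the coding Jag1-201, at 61.0% ± 5.89 (SD, n = 3) in CD61 low and 52.2% ± 5.41 in CD61 high, and the retained-intron Jag1-202, at 39.0% ± 5.89 and 47.8% ± 5.41. Jag2-201 held 46.5% ± 13.1 and 46.6% ± 5.56, with the retained-intron Jag2-203 at 19.2% ± 2.00 and 21.0% ± 3.38. The rest lay on other transcripts, as 9 of the 10 of Jag2 had reads. In CD61 low libraries 1 to 3, Jag2 was at 39.6, 22.8 and 39.4 TPM, while Jag2-201 ranged only from 14.0 to 15.8 TPM. The ratios of Jag2 to Jag1 in TPM carry this spread. On these 2 single transcripts, the ratio of Jag2-201 to Jag1-201 in TPM was 1.10 ± 0.149 in CD61 low and 8.10 ± 0.527 in CD61 high libraries. It ranged from 0.965 to 1.26 over the CD61 low libraries, in 1 of which Jag1-201 was therefore the higher. Hes1-201 held 60.8% ± 5.82 of Hes1 in CD61 low and 56.2% ± 10.9 in CD61 high.

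In the annotation used for names (GRCm39), Jag1 lies at chr2:136923373-136958693 and Jag2 at chr12:112871421-112893437, both on the minus strand. Notch1 lies at chr2:26347915-26406675 and Notch3 at chr17:32339794-32385893 on the minus strand, Notch2 at chr3:97920800-98057677 and Notch4 at chr17:34783220-34807477 on the plus strand. Hes1 lies at chr16:29882134-29886643 and Heyl at chr4:123127349-123143682 on the plus strand, and Hey1 at chr3:8726956-8732385 and Hey2 at chr10:30708350-30718828 on the minus strand. Exons of 8 members overlap those of another annotated gene, 6 of them on the opposite strand only. Whether counting used strand is not given in the sources used here, so reads of such partners cannot be told apart. The only partner of Notch1 with CPM above 0, 0610009E02Rik, was at 0.427 to 1.02 CPM.

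The wider pathway was described by a list of 56 other genes in 7 roles, of which 47 were tested in each experiment. From day 1 to day 14, 2 of them rose and 5 fell (7.51% and 5.90% of all genes), and the median Log2FC of the 47 was 0.07. Receptor cleavage, which covers the ADAM proteases and gamma-secretase, had 0 of 9 genes called in each comparison by limma or edgeR as above. The other tool run (edgeR on recovered reads, or DESeq2 for the sort) also called 0 of 9. These counts lie near the background, with 1.43% to 7.51% of all genes called higher and 0.786% to 5.90% lower by limma or edgeR. Of the 9 genes, 5 to 8 had an unadjusted p under 0.05, a cut for which no share of all genes is given here. At an adjusted p below 0.01 alone, 19.4% to 32.6% of all genes were higher and 16.0% to 36.0% lower. Dll1, Dll3 and Dll4, the Delta-like ligands, lay under 1 CPM in all 8 time course libraries, as did the glycosyltransferase gene Mfng and the target Hes5.

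The genes that fell from day 1 to day 14 came from 4 roles. Maml2, a Mastermind-like co-activator, went from 36.6 ± 0.815 to 9.60 ± 1.14 CPM (SD, n = 2; Log2FC -1.83, SE 0.09, limma adjusted p = 4.3e-16). Tle2, a Groucho-type co-repressor, went from 36.3 ± 0.741 to 9.40 ± 0.346 CPM (Log2FC -1.84), and Lfng, which encodes a fucose-modifying glycosyltransferase that acts on Notch, from 24.2 ± 0.563 to 10.4 ± 1.30 CPM (Log2FC -1.14). The non-canonical ligand genes Dlk1 (Log2FC -1.07) and Dlk2 (Log2FC -1.54) also fell, Dlk1 from 6.65 ± 0.575 to 2.65 ± 0.0459 CPM. Without day 1 replicate 1, Dlk1 was at Log2FC -0.99 and was not called.

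Neurl1a, which encodes a ubiquitin ligase of the Neuralized family that acts on Notch ligands, rose from 6.77 ± 0.312 to 29.1 ± 1.80 CPM (Log2FC 1.95, SE 0.08, limma adjusted p = 1.9e-17). Dner, a further non-canonical ligand, rose from 0.0747 ± 0.0613 to 1.96 ± 0.259 CPM (Log2FC 1.46, SE 0.14, adjusted p = 9.9e-10, from 1.25 to 4.64 over the alternatives), and on day 1 it rested on 4 reads in 1 library and 1 read in the other.

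By day 7, the same 5 genes had already fallen (Maml2 Log2FC -1.40, Tle2 -1.28, Lfng -1.49, Dlk1 -1.02, Dlk2 -1.35), and Neurl1a (Log2FC 1.23) and Dtx4, a Deltex family gene (Log2FC 1.70), had risen, beside 4.62% of all genes called lower and 4.49% higher. Dlk1 missed the limit in this step without day 1 replicate 1 (Log2FC -0.95), with quantile normalization (Log2FC -0.97) and with TMM scaling of the recovered reads (Log2FC -0.99). Dner rose (5.27-fold in CPM, Log2FC 1.44, from 1.34 to 2.33 over the alternatives) and Dlk2 fell (Log2FC -1.05) from day 7 to day 10, beside 1.43% of all genes called higher and 0.786% lower. Tle2 fell from day 10 to day 14 (Log2FC -1.29), beside 0.872% of all genes called lower.

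In the sort, 1 of the 47 genes was called higher and 1 lower (4.84% and 4.37% of all genes), and the median Log2FC of the 47 was 0.18. Maml2 was lower in CD61 high cells, at 10.9 ± 0.335 against 25.7 ± 0.877 CPM (SD, n = 3; Log2FC -1.24, SE 0.10, edgeR adjusted p = 3.4e-06). Neurl1b, another Neuralized family gene, was higher, at 27.5 ± 2.36 against 13.7 ± 3.19 CPM (Log2FC 1.01, SE 0.15, adjusted p = 0.00033). The Neurl1b call held in 8 of 14 alternatives. It was lost without CD61 low replicate 1 (Log2FC 0.92), without CD61 low replicate 2 (Log2FC 0.90), without CD61 high replicate 3 (Log2FC 0.94), with library size alone (Log2FC 0.71), with TMM after the filter (Log2FC 0.99) and with an offset for effective length (Log2FC 0.98).

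Genes whose profile over the 8 time course libraries was most like that of a member were found by Pearson correlation of log2(CPM + 1) over 10313 genes that averaged 5 CPM or more. The libraries share only 4 days and the search was over many genes, so these values are descriptions. Nearest to Jag2 were Rasgrp2 and Ppm1e (r = 0.9992 each), and nearest to Notch3 were Fam188b (r = 0.9991) and Kdm4b (r = 0.9971). Jag1, high on days 1 and 10, was most like Ptpn13 (r = 0.9952) and 1700017B05Rik (r = 0.9906). Hes1 was most like Kdm3a (r = 0.9933) and Egr1 (r = 0.9931), Hey1 like Spag9 (r = 0.9974) and Vezf1 (r = 0.9956), and Hey2 like Pddc1 (r = 0.9888) and Kif1c (r = 0.9835). For the receptors with little change, the nearest were Gm22 (r = 0.9939) and Alcam (r = 0.9924) for Notch2, Ndufs5 (r = 0.9734) and Ccdc122 (r = 0.952) for Notch1, and Gbas (r = 0.9542) and Cdc5l (r = 0.9522) for Notch4.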

How the data were processed

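Polyadenylated RNA was sequenced from 8 time course and 6 sorted Ocy454 libraries. The authors aligned time course reads with STAR, counted them with HTSeq and deposited CPM with exon lengths, and they deposited estimated counts and TPM per transcript from Salmon for the sort (build GRCm39 in the submitters' processing notes). CPM values were whole multiples of 1 read within 0.01 for 99.9981% of values, which gave the reads quoted and an alternative count test. For the sort, 115556 of 116747 transcripts (99.3 to 99.4% of counts) were matched to GENCODE names, and estimated counts were summed per gene and rounded. Time course genes above 1 CPM in at least 1 library were tested with limma 3.58.1 on log2(CPM + 1) with a mean-variance trend over all 8 libraries. The sort was tested with edgeR 4.0.16 (quasi-likelihood F-test, TMM scaling), keeping genes whose normalized count was 5 or more in each of the 6 libraries. P-values were adjusted over all genes tested, two-sided, in R 4.3.3.

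The methods state DESeq2 for the sort, which was run here (version 1.42.0) as an alternative to edgeR, with other scalings, filters, pseudocounts, a replicate block and fits that omit 1 library at a time. The scripts were tested on simulated data. All 10 members were named, with every gene of the wider list that was called. The 2 most alike genes were named for each member except Heyl. The members and lists were chosen with earlier results of these data known.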

Additional observations from a re-analysis of the deposited data

How the results depend on the processing

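Counts of called members moved mainly with the fold limit and with low genes. Calls over all genes are given only for the main setting, for no fold limit and for edgeR on the recovered reads. Counts of members under the other settings have no background beside them. With a pseudocount of 0.1, 3 members in place of 1 were higher on day 7 than day 1, 2 in place of 1 on day 10 than day 7, and 2 in place of 1 higher and 1 in place of 0 lower on day 14 than day 10. Over all genes, edgeR on the recovered reads called 1643, 550, 731 and 2292 genes on day 7 against day 1, day 10 against day 7, day 14 against day 10 and day 14 against day 1, where limma called 1159, 282, 377 and 1707. Of the 12725 genes tested by edgeR, 876, 334, 504 and 1339 were called higher and 767, 216, 227 and 953 lower, in the same order. By edgeR on the recovered reads, 3 members were higher on day 7, and 2 higher and 1 lower on day 14 than day 10. With a mean of at least 5 CPM required, 0 were higher on day 10 than day 7 and 3 in place of 5 on day 14 than day 1, because Hey1 and Hey2 left the test. With no fold limit, 5 were higher and 2 lower on day 7 than day 1, 5 higher and 1 lower on day 10 than day 7, 4 higher and 2 lower on day 14 than day 10, 2 lower on day 14 than day 1, and 4 higher in CD61 high cells. With the fold limit kept, library size alone gave 0 higher in CD61 high cells. Leaving out each library gave 1 to 2 higher on day 7, 1 to 2 higher on day 10, 0 to 1 lower on day 14 than day 10, and 0 to 1 higher in CD61 high cells (0 without CD61 low replicate 2). Notch4 entered the sort test in 1 of these fits and was called lower there (Log2FC -1.49). Signs turned for genes that were not called, and the cause was not tested. Notch4 on day 7 against day 1 was at -0.00377 with a pseudocount of 0.1, -0.0834 with quantile normalization and -0.18 without day 7 replicate 1. With libraries left out in turn, Hey2 on day 10 against day 7 ranged from -0.23 to 0.16 and Notch1 on day 14 against day 10 from -0.0600 to 0.12, with the sign turned in both without day 10 replicate 2, and Hey2 in the sort was at -0.16 with library size alone. A replicate block changed no count of called members, with 5 higher and 1 lower on day 14 than day 1. Same-numbered libraries did not deviate together (correlations of -0.321, 0.22 and -0.0614 in the sort, and from -0.406 to 0.466 between differently numbered libraries, the highest between CD61 low replicate 3 and CD61 high replicate 1). With 3 libraries per group this cannot exclude pairing. The methods describe 3 independent groups of cells and the collection of the brightest and dimmest 10%, so CD61 high and CD61 low libraries may share a group of cells. Whether same-numbered sorted libraries came from the same cells is not given in the labels, and the numbers were not treated as pairs. Few reads limit Notch4, Heyl and Hey2, and also Hey1 on day 1 (13 and 8 reads).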

Other observations

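The time course and sort tables were counted by different methods, and for some pathway genes their values, set side by side with no test, lay far apart. Rbpj, which encodes the DNA-binding partner of Notch, was at 36.3 to 59.5 CPM over the 8 time course libraries and at 157 to 204 TMM-scaled CPM over the 6 sorted libraries. Psenen, which encodes a gamma-secretase subunit, was at 4.58 to 6.53 CPM and at 60.2 to 92.9 TMM-scaled CPM. The part of counting method, day and sorting in these gaps was not tested.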
